A study of Mus musculus with 10 samples.

Results

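The genes of the vascular endothelial growth factor (VEGF) system were followed through 5 stages of the differentiation of mouse embryonic stem cells toward blood. The set was chosen by name and comprised 9 genes, namely the receptor tyrosine kinase genes Kdr, Flt1 and Flt4, the co-receptor genes Nrp1 and Nrp2, and the ligand genes Vegfa, Vegfb, Vegfc and Pgf. All 9 were found among the 55487 genes of the count tables and among the 15686 genes of the authors' stage-averaged matrix, and all 9 passed the filter on low counts, which left 22596 genes for testing.

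Nuclear RNA was sequenced from cells of the HM-1 mouse embryonic stem cell line before differentiation (ES) and from 4 populations sorted during differentiation in serum, with 2 libraries per stage and 10 in all. Hemangioblasts (HB) were cells bearing FLK1, the protein encoded by Kdr, that were enriched with magnetic beads from embryoid bodies after 3 d. These FLK1+ cells were grown for a further 2.5 d in blast culture and then sorted by flow cytometry into early hemogenic endothelium (HE1, KIT+ TIE2+ CD41-), later hemogenic endothelium (HE2, KIT+ TIE2+ CD41+) and hematopoietic progenitors (HP, KIT+ TIE2- CD41+). The labels name no deletion or drug in any group. The blast medium held added VEGF, interleukin-6 and medium conditioned by D4T cells, and each later population descended from cells selected on the product of Kdr. The study describes its replicates as biologically independent. The labels do not name the cultures, so the p-values measure only the spread between these libraries.

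VEGF ligands are secreted dimers that bind receptor tyrosine kinases on endothelial cells and their precursors. VEGFR2, the product of Kdr, carries most of the signal of VEGF-A for growth, migration and survival and is needed for the first blood and endothelial cells of the mouse embryo. VEGFR1, the product of Flt1, binds VEGF-A, VEGF-B and placental growth factor tightly but signals weakly and in its soluble form acts as a trap, whereas VEGFR3, the product of Flt4, is the main receptor of VEGF-C. Neuropilins have no kinase domain, bind both VEGF forms and class 3 semaphorins, and strengthen signalling of the kinase receptors.

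Markers of the labelled cell types were in place. Summed over 7 pluripotency markers the level was 3442 to 3481 CPM (counts scaled to a fixed library total) in ES, 422 to 441 in HB and 2.26 to 97.6 in the later libraries, where the high value belonged to HE1 replicate 2 against 8.41 in HE1 replicate 1. The 7 mesoderm markers summed to 17.8 to 19.7 CPM in ES, 1010 to 1130 in HB and 81.3 to 374 in the later stages. Endothelial markers (12 genes) summed to 344 to 352 CPM in ES, 541 to 599 in HB, 3407 to 5191 in HE1, 1859 to 3282 in HE2 and 953 to 973 in HP, and hematopoietic markers (10 genes) to 133 to 139, 69.3 to 84.0, 156 to 282, 815 to 1016 and 974 to 1148 CPM. Mesenchymal and smooth muscle markers (7 genes) reached 741 to 1812 CPM in the blast culture populations against 113 to 166 before, and visceral endoderm markers (8 genes) lay between 4.33 and 109 CPM, with Ttr at or under 3 counts in each library of ES, HE1, HE2 and HP. The sort antigens of blast culture followed the gates in part, since Tek, which encodes TIE2, averaged 429 CPM in HE1, 222 in HE2 and 62.9 in HP, Itga2b, which encodes CD41, 177, 487 and 384 CPM, and Kit 110, 320 and 307 CPM. Libraries held 24920434 to 58782055 counts. A floor of 3 counts corresponds to 0.0532 to 0.126 CPM after TMM scaling and covers counting error only.

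Sequence upstream of the annotated start could be read from RefSeq (GRCm38.p6) for 6 of the 9 genes. The 4 runs of Kdr, Flt1, Nrp2 and Vegfa are printed, and those of Vegfb and Vegfc are not. The runs end upstream of the annotated gene, are written 5′ to 3′ in the direction of transcription, and carry in capitals each match to 1 of 8 short motifs searched on both strands. These were AGGAAG and CCGGAA for ETS factors, TGACGTCA for the cyclic AMP response element, GGGCGG for the GC box, TATAAA for the TATA box, AGATAA for GATA factors, ACGTG for hypoxia-inducible factors and ACAATG for SOX factors.
Kdr, chr5:75978459-75978705, minus strand: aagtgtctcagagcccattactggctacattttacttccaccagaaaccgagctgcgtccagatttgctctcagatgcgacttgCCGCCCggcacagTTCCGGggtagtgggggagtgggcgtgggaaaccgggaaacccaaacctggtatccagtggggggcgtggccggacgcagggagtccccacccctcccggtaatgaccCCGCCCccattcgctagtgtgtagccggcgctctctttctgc
Flt1, chr5:147726012-147726261, minus strand: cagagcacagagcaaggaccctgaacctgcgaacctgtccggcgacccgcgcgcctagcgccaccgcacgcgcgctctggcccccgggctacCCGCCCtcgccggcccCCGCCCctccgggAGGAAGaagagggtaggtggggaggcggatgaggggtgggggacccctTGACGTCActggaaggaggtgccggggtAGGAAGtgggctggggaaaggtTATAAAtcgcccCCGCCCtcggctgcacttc
Nrp2, chr1:62703067-62703284, plus strand: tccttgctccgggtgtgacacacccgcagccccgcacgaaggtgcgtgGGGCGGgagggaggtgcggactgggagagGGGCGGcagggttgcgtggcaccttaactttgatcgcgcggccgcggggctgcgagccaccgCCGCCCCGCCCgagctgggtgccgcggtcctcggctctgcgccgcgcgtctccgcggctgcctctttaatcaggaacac
Vegfa, chr17:46032378-46032627, minus strand: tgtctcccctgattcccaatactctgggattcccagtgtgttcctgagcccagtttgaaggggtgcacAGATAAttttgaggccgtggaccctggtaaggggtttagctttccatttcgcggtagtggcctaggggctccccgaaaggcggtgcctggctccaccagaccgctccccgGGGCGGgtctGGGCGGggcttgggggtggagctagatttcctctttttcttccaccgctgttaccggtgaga
With positions counted from 1 at the 5′ end, the Kdr run held 1 CCGGAA motif, on the opposite strand at position 98, and 2 GC boxes at 85 and 206. The Flt1 run held AGGAAG at 122 and 198, TGACGTCA at 170, TATAAA at 220 and GC boxes at 93, 109 and 232. Nrp2 had 4 GC boxes, at 49, 78, 140 and 145, the last pair sharing 1 base, and Vegfa had GC boxes at 179 and 189 and AGATAA at 69. Over the first 250 bases upstream of all 32851 mouse promoters in RefSeq, AGGAAG was present in 29.5%, CCGGAA in 12.0%, TGACGTCA in 1.55%, GGGCGG in 32.7%, TATAAA in 12.4%, AGATAA in 9.99%, ACGTG in 16.6% and ACAATG in 10.7%. In windows cut to the 247 bases of Kdr, CCGGAA was present in 11.8% and GGGCGG in 32.3%, and in windows of 218 bases, as for Nrp2, GGGCGG was present in 28.2%. These matches describe letters and not bound sites, and the windows of the 4 genes held neither ACGTG nor ACAATG.

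In outline, Kdr, Flt1, Flt4 and Nrp1 were low in ES, high in HB and HE1 and lower again in HP, while Nrp2 was lowest in HP and the ligands followed separate courses. Levels are given as CPM after scaling of the libraries by the trimmed mean of M-values (TMM), with replicate 1 named first, and a gene was called where edgeR's quasi-likelihood test, adjusted by Benjamini and Hochberg's method over all tested genes, gave an adjusted p under 0.05 with a change of 2-fold or more. In these bulk samples, fewer cells of a type and less RNA per cell cannot be told apart.

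**Figure D1:**
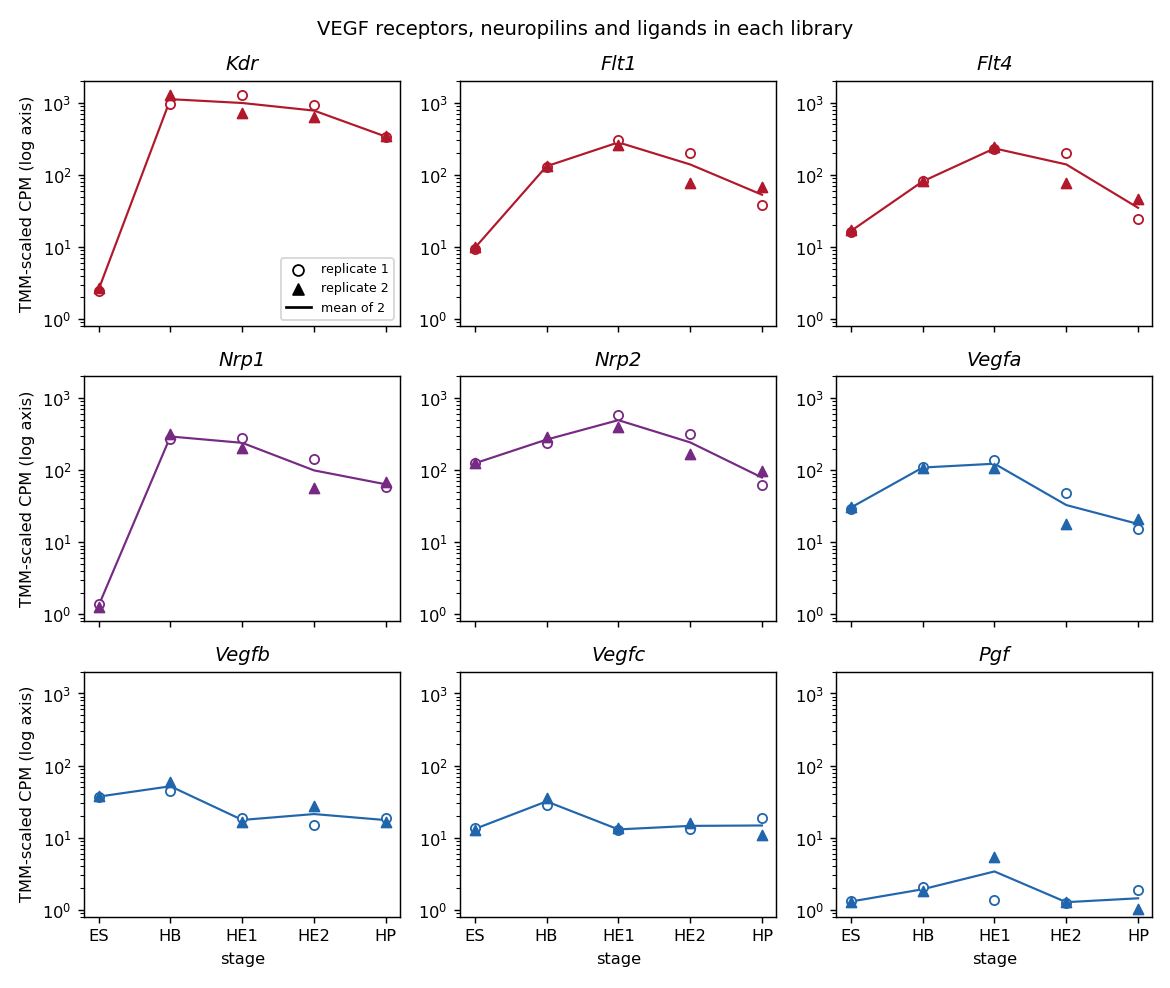
Level of each of the 9 genes in each of the 10 libraries, as TMM-scaled CPM on a log axis shared by all panels, against stage; circles are replicate 1, triangles replicate 2 and the line joins stage means. Kdr and Nrp1 start under 3 CPM in ES and stand at 957 and 1284 CPM and at 271 and 316 CPM in the HB libraries, whereas Vegfb, Vegfc and Pgf stay within a narrower band.

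Between ES and HB, 7 of the 9 genes were called higher and 0 lower, against 11.5% of all tested genes higher and 17.3% lower. The 3 kinase receptors and both neuropilins rose, and so did Vegfa and Vegfc. Vegfb and Pgf were not called, and at an unadjusted p under 0.05 no member was lower. The 2 libraries of HB did not overlap those of ES for any of the 9 genes. With 2 libraries against 2, unchanged genes can separate as well. The share of all tested genes without overlap was not counted, here or in the comparisons that follow, so these counts are descriptions only. The median log2 change of the members was 1.85, and that of all tested genes was 0. These counts and the median include Kdr, whose product HB cells were selected on, and 6 of the other 8 genes were called higher.

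From HB to HE1, Flt1 and Flt4 were called higher and Vegfb and Vegfc lower, so that 2 of 9 were higher and 2 of 9 lower, against 12.7% and 8.19% of all tested genes. Libraries did not overlap for 5 of the 9 genes. The member median was 0.18 on the log2 scale and that of all genes 0.04. In the same comparison 11 of 12 endothelial markers (median log2 change 3.13) and 6 of 7 mesenchymal and smooth muscle markers (3.20) were called higher. None of either list was lower, and 4 of 7 mesoderm markers were lower. Their part in the members' changes was not tested. The higher calls were less firm than the lower ones. Leaving out 1 library put the log2 change at 0.91 to 1.23 for Flt1 and at 1.45 to 1.52 for Flt4. Those of Vegfb and Vegfc were then -1.80 to -1.39 and -1.50 to -1.16. With total counts in place of TMM Flt1 lost its call, which made the split 1 higher and 2 lower. Of all 22596 tested genes, 2794 were higher and 1683 lower with total counts.

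From HE1 to HE2, Vegfa and Nrp1 were called lower and 0 members higher, against 5.39% and 3.26% of all tested genes. At an unadjusted p under 0.05, 5 of 9 were lower and 0 higher, beside 4442 lower and 3549 higher among all 22596 tested genes. The libraries did not overlap for 6 of the 9 genes, and the member median was -1.02 on the log2 scale, with -0.08 for all genes. In the same comparison 9 of 10 hematopoietic markers were called higher (median log2 change 3.51). Called lower were 6 of 7 pluripotency markers (median -3.79) and 1 of 12 endothelial markers (median -0.82). The part of these markers' cells in the members' decline was not tested. Nrp2 came close to a call (log2 change -1.02, adjusted p = 0.0532, edgeR). limma-voom called Nrp2 as well and so 3 members lower, DESeq2 and a crossed replicate block called 4, with Nrp2 and Flt1, and the fit with no filter on low counts called 4, with Nrp2 and Pgf. Lower calls over all genes rose too, from 1217 of 22596 to 1329 with limma-voom, 1795 with DESeq2 and 2149 with the crossed block, and to 2864 of 39019 with no filter. The count of lower calls among members was 5 without HE2 replicate 1, and 1 without HE2 replicate 2, HE1 replicate 2, HP replicate 1 or either HB library. Over all genes it was 2118 of 24418 without HE2 replicate 1, 98 of 24420 without HE2 replicate 2, 260 of 23598 without HE1 replicate 2, 1110 of 24376 without HP replicate 1, and 693 of 24288 and 685 of 24360 without HB replicate 1 and 2.

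Between HE2 and HP, edgeR called 0 of 9 members in either direction, as it called 0% of all tested genes. At an unadjusted p under 0.05, 5 of 9 members were lower in HP, namely Kdr, Flt1, Flt4, Nrp2 and Vegfa, as were 1113 of all genes, with 670 higher. limma-voom called 0 members, DESeq2 called Kdr, Flt1, Flt4 and Nrp2, and without HE2 replicate 2 the quasi-likelihood fit called 6, these 4 with Nrp1 and Vegfa. Over all genes, DESeq2 called 193 of 22596 lower, and the fit without HE2 replicate 2 called 475 of 24420 lower. With limma-voom, 35 of all 22596 tested genes were called higher in HP than in HE2 and 27 lower, beside its 0 members. The libraries of HP and HE2 did not overlap for 4 of the 9.

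Over the longer step from HE1 to HP, 6 of 9 members were called lower, namely the 3 kinase receptors, both neuropilins and Vegfa, and 0 were called higher, also at an unadjusted p under 0.05. The libraries of HE1 and HP did not overlap for these 6 genes. In the same comparison 12 of 12 endothelial markers were called lower (median log2 change -2.71) and 10 of 10 hematopoietic markers higher (median 4.04), and their part in the members' decline was not tested. Among all tested genes 11.2% were lower and 5.35% higher. The member median was -1.91 on the log2 scale beside -0.02 for all genes. Leaving out any 1 library kept these 6 calls, and Pgf joined them without HE1 replicate 1. Comparisons that share a stage share its libraries and are not independent.

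**Figure D2:**
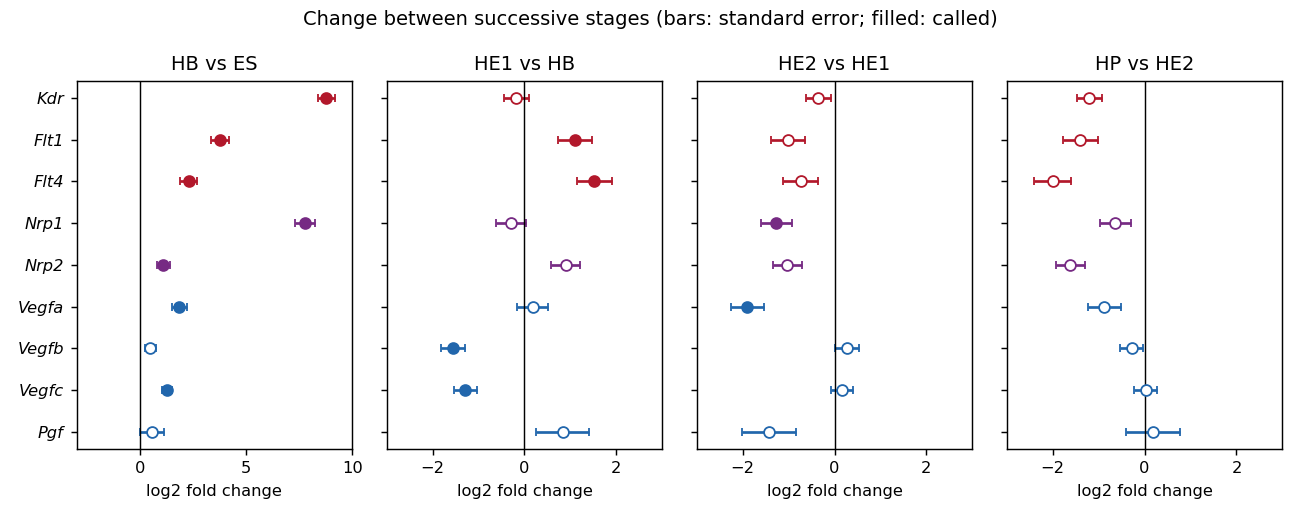
Log2 fold change of each gene between successive stages (first stage named minus second), with bars of 1 standard error; filled points were called. The horizontal scale of the first panel is wider than that of the other panels, and 7 points are filled there, 4 in HE1 vs HB, 2 in HE2 vs HE1 and 0 in HP vs HE2.

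Kdr (ENSMUSG00000062960, mm10 chr5:75932827-75978458, minus strand) encodes VEGFR2 and lies downstream of the printed run with its ETS match. It stood at 2.43 and 2.70 CPM in ES, 957 and 1284 CPM in HB, 1265 and 718 CPM in HE1, 926 and 630 CPM in HE2 and 334 and 344 CPM in HP. Both ES libraries were far below all others, the HE1 libraries overlapped those of HB and of HE2, HB was above HE2, and HP was below each of these stages. The difference of 8.77 ± 0.391 on the log2 scale (SE) between HB and ES, with an adjusted p of 4.44e-07 in edgeR's quasi-likelihood test, checks the FLK1 sort and is no finding. Likewise HE1 against HB compares cells with their sorted ancestors, and the log2 difference was -0.18 ± 0.274 (adjusted p = 0.647, edgeR). Kdr fell by 1.55 on the log2 scale from HE1 to HP (SE 0.280, adjusted p = 0.00339, edgeR), the smallest decline among the 6 members called there. HP exceeded ES, a contrast that spans the FLK1 selection, by 7.05 ± 0.366 on the log2 scale (adjusted p = 3.21e-07, edgeR). In the order of stage means, HB, HE1, HE2, HP and ES, the neighbouring stages did not differ at an adjusted p under 0.05 until the last step. The share of all tested genes under that threshold in either direction was 40.4% for HB vs ES, 54.9% for HE1 vs ES, 51.3% for HE2 vs ES, 51.6% for HP vs ES, 32.3% for HE1 vs HB, 29.1% for HE2 vs HB, 30.2% for HP vs HB, 13.2% for HE2 vs HE1, 24.9% for HP vs HE1 and 0% for HP vs HE2, against which the order of each member's stages can be read.

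Flt1 (ENSMUSG00000029648, chr5:147561604-147726011, minus strand) encodes VEGFR1, and the exonic counts do not separate its soluble form from the membrane form. It was present at 9.35 and 9.98 CPM in ES, 130 and 133 CPM in HB, 308 and 256 CPM in HE1, 201 and 77.7 CPM in HE2 and 38.4 and 67.7 CPM in HP. The replicates of ES and HB lay close together, HE1 was above every other library, and HE2 spanned the HB values. It rose by 3.77 ± 0.416 on the log2 scale from ES to HB (adjusted p = 6.25e-05) and by 1.10 ± 0.372 from HB to HE1 (adjusted p = 0.0448, both by edgeR). The second rise missed the threshold without either library of ES, HB or HE1, where edgeR's adjusted p lay between 0.0576 and 0.176. Flt1 then fell by 2.41 on the log2 scale from HE1 to HP (SE 0.388, adjusted p = 0.00187, edgeR). In the order of its levels, HE1 and HE2 did not differ at the threshold, nor did HE2 and HB, whereas HB was above HP (adjusted p = 0.0223) and HP above ES (adjusted p = 0.000475, both by edgeR).

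Flt4 (ENSMUSG00000020357, chr11:49609263-49652739, plus strand) encodes VEGFR3. Its levels were 16.3 and 17.0 CPM in ES, 81.0 and 81.2 CPM in HB, 226 and 240 CPM in HE1, 202 and 76.7 CPM in HE2 and 24.2 and 45.6 CPM in HP. The HE1 libraries were the highest of the 10 and the HE2 libraries lay on either side of the HB values. Flt4 rose by 2.29 ± 0.400 on the log2 scale in HB against ES (adjusted p = 0.00117) and by 1.52 ± 0.386 in HE1 against HB (adjusted p = 0.0136, both by edgeR). Without either HB library the latter missed the threshold, with an adjusted p of 0.0753 and 0.0856 in edgeR's test. It fell by 2.74 on the log2 scale from HE1 to HP (SE 0.404, adjusted p = 0.0012, edgeR). HP kept more Flt4 than ES, by 1.07 ± 0.389 on the log2 scale (adjusted p = 0.0402, edgeR).

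Nrp1 (ENSMUSG00000025810, chr8:128358604-128503363, plus strand) encodes a co-receptor for VEGF-A and semaphorin 3A. It was measured at 1.38 and 1.26 CPM in ES, 271 and 316 CPM in HB, 276 and 203 CPM in HE1, 143 and 56.1 CPM in HE2 and 59.3 and 68.2 CPM in HP. Nrp1 was near 1 CPM in both ES libraries, highest in HB and HE1, and at similar levels in HE2 replicate 2 and HP. Between ES and HB it rose by 7.78 ± 0.466 on the log2 scale (adjusted p = 1.41e-06, edgeR), the largest change of a member that was not itself the sort antigen. It fell by 1.27 on the log2 scale from HE1 to HE2 (SE 0.340, adjusted p = 0.038) and by 1.91 from HE1 to HP (SE 0.346, adjusted p = 0.00339, both by edgeR). The former ranged from -2.08 to -0.73 when 1 library was left out, and was under 2-fold without HE2 replicate 2. With only the 4 libraries compared, the change from HE1 to HE2 was not called (adjusted p = 0.0912, edgeR). The microRNA gene Mir1903 lies within an exon of Nrp1 on the same strand and shares 80 bases with it, so its counts, at most 13.9 CPM, cannot be told from those of Nrp1.

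Nrp2 (ENSMUSG00000025969, chr1:62703285-62818695, plus strand) encodes the co-receptor best known for VEGF-C and semaphorin 3F. Its levels were 125 and 124 CPM in ES, 241 and 291 CPM in HB, 589 and 401 CPM in HE1, 320 and 166 CPM in HE2 and 62.1 and 96.2 CPM in HP. Its ES libraries stood far above the level of Nrp1 there, and HP was its lowest stage. Nrp2 rose by 1.09 ± 0.311 on the log2 scale from ES to HB (adjusted p = 0.0169, edgeR), a call lost without either ES library or without HB replicate 2 (adjusted p = 0.0677 to 0.0916, edgeR). In HE1 it exceeded HB by 0.90 ± 0.310 (log2, adjusted p = 0.0483, edgeR), which is under 2-fold. It fell by 2.64 on the log2 scale from HE1 to HP (SE 0.327, adjusted p = 0.000571, edgeR), and HP and ES, the 2 lowest stages, did not differ at the threshold (log2 difference -0.65 ± 0.310, adjusted p = 0.101, edgeR).

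Vegfa (ENSMUSG00000023951, chr17:46016993-46032369, minus strand) encodes the main ligand of VEGFR2, and its splice forms were not separated here. It stood at 29.4 and 31.2 CPM in ES, 112 and 106 CPM in HB, 139 and 108 CPM in HE1, 47.8 and 18.0 CPM in HE2 and 15.2 and 20.7 CPM in HP. HB and HE1 were above the other stages without overlap, and HE2 replicate 2 was within the range of HP. Vegfa rose by 1.85 ± 0.357 on the log2 scale from ES to HB (adjusted p = 0.00213, edgeR) and was 0.18 ± 0.345 higher in HE1 than in HB (log2, adjusted p = 0.722, edgeR). It fell by 1.90 on the log2 scale from HE1 to HE2 (SE 0.359, adjusted p = 0.0122, edgeR). When 1 library was left out, the log2 change ranged from -2.76 to -1.35. From HE1 to HP it fell by 2.78 on the log2 scale (SE 0.372, adjusted p = 0.00079, edgeR). HP, HE2 and ES, the lower stages, did not differ between neighbours in the order.

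Vegfb (ENSMUSG00000024962, chr19:6982473-6987651, minus strand) encodes a ligand of VEGFR1. It was present at 36.2 and 38.1 CPM in ES, 44.7 and 58.6 CPM in HB, 18.7 and 16.6 CPM in HE1, 15.2 and 27.4 CPM in HE2 and 18.7 and 16.4 CPM in HP. ES and HB were above all libraries sorted from blast culture. Vegfb fell by 1.55 on the log2 scale from HB to HE1 (SE 0.257, adjusted p = 0.00147, edgeR) and HP differed from HE1 by -0.01 ± 0.254 (log2, adjusted p = 1, edgeR). It was the 1 member called lower in HP than in ES, by -1.08 ± 0.253 on the log2 scale (adjusted p = 0.0046, edgeR). In HP against ES, 4 members were higher and 1 lower, beside 16.7% and 21.9% of all tested genes.

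Vegfc (ENSMUSG00000031520, chr8:54077606-54187096, plus strand) encodes the ligand of VEGFR3. Its levels were 13.5 and 12.9 CPM in ES, 28.4 and 35.4 CPM in HB, 12.6 and 13.4 CPM in HE1, 13.3 and 15.9 CPM in HE2 and 18.5 and 11.0 CPM in HP. Only the HB libraries stood out, above all the others. Vegfc rose by 1.27 ± 0.245 on the log2 scale from ES to HB (adjusted p = 0.00208) and fell by 1.29 from HB to HE1 (SE 0.247, adjusted p = 0.0033, both by edgeR). In the order of its levels, HB differed from its neighbour HP (adjusted p = 0.0059, edgeR) and no other neighbours differed. Vegfc was thus lower in HE1 than in HB while Flt4, whose product binds VEGF-C, was higher.

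Pgf (ENSMUSG00000004791, chr12:85166635-85177790, minus strand) encodes placental growth factor, a ligand of VEGFR1. It was counted 32 to 164 times per library, at 1.31 and 1.29 CPM in ES, 2.05 and 1.80 CPM in HB, 1.39 and 5.42 CPM in HE1, 1.25 and 1.30 CPM in HE2 and 1.87 and 1.02 CPM in HP. A single library, HE1 replicate 2, was apart from the other 9, and it was also the library with the higher pluripotency marker sum. Whether those cells have a part in it was not tested. No comparison of stages called Pgf with all libraries and the filter on low counts in the fit. With no such filter, edgeR called it lower in HE2 than in HE1, by -1.41 on the log2 scale (adjusted p = 0.032). Without HE1 replicate 1, however, edgeR called it higher in HE1 than in HB, by 1.45 on the log2 scale (adjusted p = 0.0264), and without HE1 replicate 2 the log2 difference was -0.47 (adjusted p = 0.53).

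HP was also compared directly with HB. There, 8 of 9 members were called lower and 0 higher, against 11.6% and 10.1% of all tested genes, and Pgf was the exception (log2 difference -0.40 ± 0.574, adjusted p = 0.647, edgeR). The declines on the log2 scale ran from -1.11 ± 0.244 for Vegfc to -2.60 ± 0.369 for Vegfa (adjusted p = 0.0059 and 0.0004, edgeR). Here again Kdr had been selected for in HB.

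Levels of different genes were compared after division by exonic length, as CPM per kilobase. Kdr took the smallest share of the 3 kinase receptors in ES and the largest in every later stage, whereas Vegfb led the ligands in ES, HB and HP and Vegfa in HE1. Without division by length Vegfa led in HB (56.2% against 26.5% for Vegfb) and by its mean in HE2 (45.2% against 31.7%) and HP (35.1% against 33.9%), while the 2 libraries of HE2, and those of HP, differed in which of the pair led. The receptors summed to 2.94 and 3.10 CPM per kilobase in ES, to 125 and 162 for HB, to 190 and 128 for HE1, to 142 and 84.9 for HE2 and to 42.8 and 48.6 for HP. Flt4 took 66.9% ± 0.551 of this sum in ES (SD, n = 2), Flt1 23.7% ± 0.212 and Kdr 9.40% ± 0.339. From HB on, Kdr took 86.1% ± 2.37 (HB), 68.0% ± 7.98 (HE1), 77.2% ± 7.09 (HE2) and 82.4% ± 5.79 (HP). The Kdr shares of the HE1 and HP libraries did not overlap, with 73.6% and 62.3% against 86.5% and 78.3%. Shares are given as a description, with no test. The ratio of Flt1 to Kdr per kilobase was 2.57 and 2.48 in ES, was 0.091 and 0.0693 in HB and was 0.163 and 0.238 in HE1. In HE2 it was 0.145 and 0.0825, and in HP 0.0767 and 0.132.

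**Figure D3:**
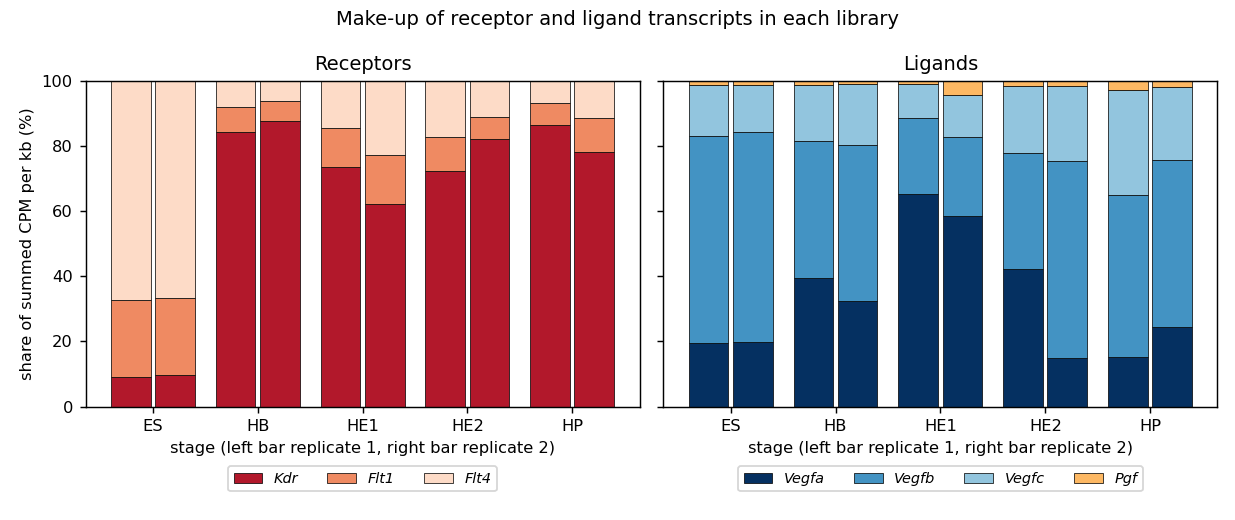
Share of the summed CPM per kilobase taken by each of the 3 receptor genes (left) and 4 ligand genes (right) in each library, in percent, with replicate 1 as the left and replicate 2 as the right bar of each stage. Flt4 is the widest receptor band in ES and Kdr in every other library, and the Vegfa band is 42.2% in HE2 replicate 1 and 14.9% in HE2 replicate 2.

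The 4 ligands together amounted to 35.4 and 36.7 CPM per kilobase in ES, to 66.3 and 76.3 for HB, to 49.6 and 42.8 for HE1, to 26.5 and 28.2 for HE2 and to 23.4 and 19.9 for HP. Summed receptor levels were below summed ligand levels in ES and above them in every library of the other stages, but this change of order spans the FLK1 selection, and Kdr, the gene selected on, made up most of the receptor sum in HB. Vegfb made up 64.2% ± 0.604 of the ligand sum in ES (SD, n = 2) and 44.9% ± 4.09 in HB. Vegfa took 61.9% ± 4.59 in HE1, where Vegfb was at 23.8% ± 0.474 and Vegfc at 11.6% ± 1.72. In HP the shares were 50.5% for Vegfb, 27.5% for Vegfc and 19.7% for Vegfa. The 2 HE2 libraries differed in which ligand led, since Vegfa was at 42.2% and Vegfb at 35.7% in replicate 1, and Vegfa at 14.9% and Vegfb at 60.5% in replicate 2. Of the neuropilins, Nrp2 took 98.7% of the summed level per kilobase in ES and then 42.8% (HB), 62.9% (HE1), 68.0% (HE2) and 50.1% (HP). Nrp1 was accordingly the more abundant neuropilin per length in HB and Nrp2 in ES, HE1 and HE2, while the HP libraries differed in this, with Nrp2 at 46.4% in replicate 1 and 53.8% in replicate 2.

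HE2 was the stage with the widest gap between its libraries for Flt1, Flt4, both neuropilins, Vegfa and, in the opposite direction, Vegfb, as was HE1 for Kdr and Pgf and HP for Vegfc. The level in HE2 replicate 1 relative to replicate 2 was 2.66 for Vegfa, 2.64 for Flt4, 2.59 for Flt1, 2.55 for Nrp1, 1.93 for Nrp2 and 1.47 for Kdr, and 0.554 for Vegfb. All 12 endothelial markers were higher in replicate 1, with a sum of 3282 against 1859 CPM and no marker at the floor. Hematopoietic markers were higher in replicate 1 for 2 of 10 genes, with a sum of 815 against 1016 CPM. For example, Cdh5, the endothelial cadherin, stood at 862 and 412 CPM, and Spi1, which encodes the myeloid regulator PU.1, at 26.4 and 65.9. In HE1 the ratio of replicate 1 to replicate 2 was 1.76 for Kdr, with 11 of 12 endothelial markers and 6 of 10 hematopoietic markers higher in replicate 1. The hematopoietic sum was 282 against 156 CPM there, the mesenchymal and smooth muscle sum 1005 against 1812 CPM and the pluripotency sum 8.41 against 97.6 CPM. In HE2 the mesenchymal and smooth muscle sum was 1130 against 801 CPM and the visceral endoderm sum 36.4 against 11.3 CPM. The visceral endoderm list includes Sox17 and Cubn, called lower in HE2 than in HE1, while Ttr was at the floor in HE2. Its sum therefore need not mark visceral endoderm cells. The part of these cell types in the members' values was not tested.

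**Figure D4:**
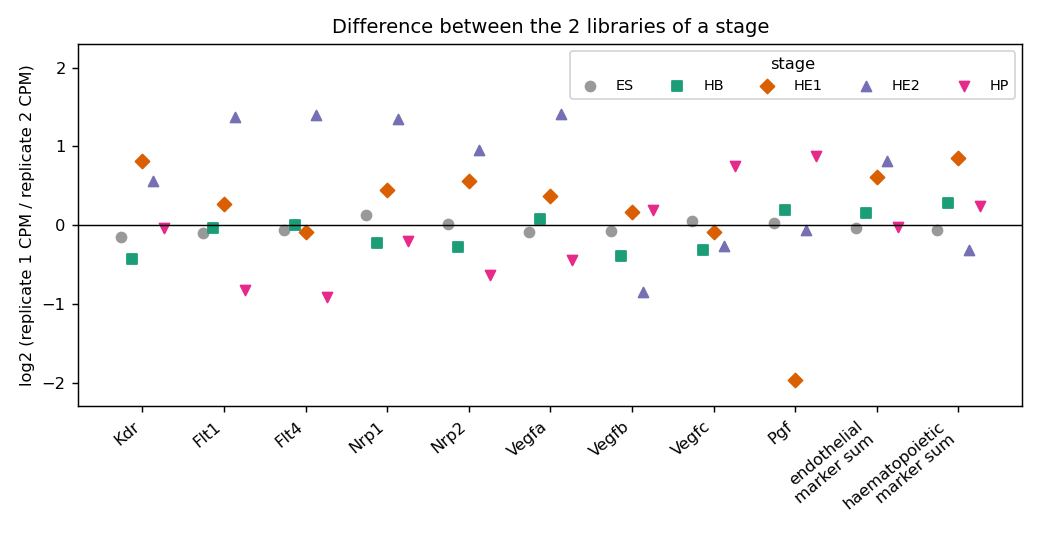
Log2 ratio of replicate 1 to replicate 2 within each stage, for each of the 9 genes and for the summed CPM of 12 endothelial and 10 hematopoietic markers; each symbol is 1 stage. The HE2 triangles lie above 0.9 for Flt1, Flt4, Nrp1, Nrp2 and Vegfa, in the same direction as the endothelial sum, and Pgf in HE1 is the lowest point.

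Across the 10 libraries the courses of the members are described by Pearson's r of log2 CPM, with no test, since the libraries of a stage share its cells. Kdr and Nrp1 had an r of 0.984, Flt1 and Flt4 0.958, Nrp2 and Vegfa 0.880 and Vegfb and Vegfc 0.717, while Vegfb and Flt4 had -0.396. Among 12227 other genes that reached a mean of 9 CPM in at least 1 stage, those most like Kdr were Bmp2 (r = 0.998), a bone morphogenetic protein, Gata2 (0.996), a hematopoietic transcription factor, and Gem (0.994), a small GTPase. Flt1 was most like Sema6d (0.997), a transmembrane semaphorin, the endothelial adhesion gene Icam2 (0.994) and Cxxc4 (0.994). Rspo3 (0.995), which encodes an enhancer of WNT signalling, Frmd4b and the overlapping Mir1903 (both 0.993) were nearest to Nrp1. The nearest genes were Srgap1, Gm20532 and Fbxl7 for Flt4, Rin2, Pcdhga10 and Pcdhga9 for Nrp2, Zfp618 and Tnrc18 for Vegfa, Actr6, Zfp322a and Ankrd37 for Vegfb, and Galk1, Unc119b and Gpi1 for Vegfc. Pgf had no gene above an r of 0.882 (Basp1, followed by Mthfsd and Eps15l1). Pcdhga9 and Pcdhga10 belong to a protocadherin cluster whose genes share exons, so that their counts are uncertain.

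The authors' stage-averaged matrix gave the same highest stage for 9 of 9 members and the same lowest stage for 8 of 9. The exception was Vegfc, whose lowest stages were close to each other.

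Genes that process or retain VEGF ligands set how much of them reaches a receptor, and the genes of this and the following lists that are said to rise or fall were called by edgeR. The counts of each list can be read against the shares of all tested genes, which were 11.5% higher and 17.3% lower in HB against ES, 12.7% and 8.19% in HE1 against HB, 3.26% and 5.39% in HE2 against HE1, 0% and 0% in HP against HE2 and 5.35% and 11.2% in HP against HE1. Of 9 genes, made up of 8 such genes and the ligand gene Vegfd, 3 were called higher and 3 lower in HB against ES, 4 and 2 in HE1 against HB, 1 and 2 in HE2 against HE1, 0 and 0 in HP against HE2 and 1 and 5 in HP against HE1. Adamts3, a protease that with Ccbe1 helps to activate VEGF-C, rose by 4.57 ± 0.335 on the log2 scale from ES to HB (2.14 to 50.6 CPM), fell by 2.65 in HE1 (SE 0.304) and rose again in HE2 and HP, to 25.7 and 39.2 CPM. Ccbe1 fell by 1.56 in HB against ES (SE 0.505, log2), to 0.403 CPM. The proprotein convertase gene Pcsk5 rose from 0.786 to 89.7 CPM in HB and fell in HE2, Furin rose from 107 to 301 CPM in HE1, and the heparan sulfate proteoglycan gene Hspg2 fell in HB (2049 to 512 CPM), rose in HE1 (1.88 ± 0.294) and fell in HP against HE1 (-2.06 ± 0.296). Gpc1, a glypican, was lower in HE1 than in HB by -1.97 ± 0.319 and in HE2 than in HE1 by -1.73 ± 0.325 (log2), and Adamts1 in HP than in HE1 by -1.79 ± 0.236. Vegfd, the other ligand of VEGFR3, was called lower in HB than in ES and averaged 0.865 to 2.61 CPM over the stages.

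Partners of the neuropilins, the class 3 semaphorins and plexins with Gipc1, were called higher for 5 and lower for 5 of 13 in HB against ES, 5 and 3 in HE1 against HB, 0 and 3 in HE2 against HE1, 0 and 0 in HP against HE2 and 0 and 6 in HP against HE1, where 11.2% of all tested genes were lower. Sema3a, a ligand of Nrp1, rose with it by 6.98 ± 0.607 on the log2 scale from ES to HB and then fell by 2.58 in HE1 (SE 0.471), where Nrp1 did not pass the test. Plxna4, an Nrp1 partner, also rose in HB (6.81 ± 0.492), and Sema3c and Sema3e fell there (-3.93 ± 0.578 and -2.56 ± 0.240). In HE1 Sema3g (3.04 ± 0.619) and Sema3c (2.14 ± 0.560) rose and Plxna3 fell (-1.81 ± 0.217). Sema3f, a ligand of Nrp2, fell from HE1 to HE2 and to HP (-2.02 ± 0.557 and -3.32 ± 0.595), as did Sema3g (-2.47 ± 0.600 and -4.11 ± 0.661).

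Modulators of the receptor complex include phosphatases, cadherins and adaptors that act on the VEGF receptors. Of 9 genes, 4 were called higher and 1 lower in HB against ES, 5 and 1 in HE1 against HB, 1 and 4 in HE2 against HE1, 0 and 0 in HP against HE2 and 1 and 7 in HP against HE1, where 5.35% and 11.2% of all tested genes were called. The list's median log2 change from HE1 to HP was -2.51. All 12 endothelial markers were lower there (median -2.71), and their part in the list's decline was not tested. The endothelial cadherin gene Cdh5, which is also 1 of the endothelial markers, rose by 7.15 ± 0.516 on the log2 scale in HB and by a further 3.50 ± 0.404 in HE1. Ptprb, the vascular endothelial phosphatase, rose by 6.93 ± 0.678 in HB and was lower in HP than in HE1 by -3.79 ± 0.533. Mcam, a co-receptor of VEGFR2, fell in HB (-3.68 ± 0.505), rose in HE1 (3.39 ± 0.500) and fell again in HE2 and HP against HE1 (-1.72 ± 0.463 and -3.07 ± 0.490). Efnb2, the ephrin that governs receptor uptake, fell in HE2 (-1.72 ± 0.370), and the phosphatase gene Ptprj moved the other way, with -1.80 ± 0.191 in HE1 against HB, 1.58 ± 0.190 in HE2 and 2.37 ± 0.194 in HP against HE1.

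Inside the cell the receptors signal through phospholipase C, kinases and adaptors. Of 44 such genes 43 were tested, and 8 were called higher and 6 lower in HB against ES, 10 and 2 in HE1 against HB, 3 and 2 in HE2 against HE1, 0 and 0 in HP against HE2 and 3 and 5 in HP against HE1. The shares over all genes in HB against ES were 11.5% called higher and 17.3% called lower. The phospholipase gene Plcg2 rose by 2.74 ± 0.312 on the log2 scale from HE1 to HE2 and by 3.00 ± 0.315 from HE1 to HP, where Kdr fell, and Prkca, a protein kinase C, by 2.37 ± 0.230 and 2.77 ± 0.234. Nos3, the endothelial nitric oxide synthase, fell by 4.06 from HE1 to HP (SE 0.795). Nfatc1 and Vav3 rose in HB (5.21 ± 0.287 and 4.48 ± 0.249), and Nfatc1 was lower in HE2 and HP than in HE1 (-1.03 ± 0.231 and -1.71 ± 0.235). Hspb1 and Pik3cb fell in HB (-3.90 ± 0.471 and -2.50 ± 0.208) and rose in HE1 (2.39 ± 0.446 and 2.61 ± 0.209), Braf and Map2k1 fell in HE1 (-1.64 ± 0.153 and -1.25 ± 0.146), and the adaptor gene Shb fell in HE2 (-1.56 ± 0.265).

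Of 20 genes known to respond to VEGF in endothelial cells, 19 were tested, and 6 were called higher and 4 lower in HB against ES, 7 and 1 in HE1 against HB, 0 and 6 in HE2 against HE1, 0 and 0 in HP against HE2 and 0 and 12 in HP against HE1. The median log2 change of the list from HE1 to HP was -1.50, beside -0.02 for all tested genes, of which 11.2% were called lower. All 12 endothelial markers were called lower in the same comparison, with a median log2 change of -2.71, and their part in the decline of the list was not tested. Dll4, the Notch ligand of tip cells, rose by 4.06 ± 1.06 on the log2 scale in HB and fell from HE1 to HP, where its HP libraries were at 0.0456 and 1.62 CPM, the first under the floor. Angpt2, an angiopoietin, fell from HE1 to HE2 and to HP (-2.58 ± 0.515 and -3.57 ± 0.546). The homeobox gene Hlx rose by 6.28 ± 0.370 in HB. Plaur and Icam1 fell in HB (-4.43 ± 0.462 and -4.29 ± 0.423), Plaur rose in HE1 (4.51 ± 0.464), Vcam1 was called higher in HE1, at 6.73 and 3.17 CPM against 0 and 0.169 in HB, Egr1 fell in HE1 (-1.26 ± 0.267) and Egr3 in HE2 (-2.55 ± 0.702). Egr3 stood at 1.60 and 10.4 CPM in HE1 against 1.25 and 0.794 CPM in HE2, so that HE1 replicate 2 carried most of that difference.

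Genes of oxygen sensing and targets of the hypoxia-inducible factors, of which Vegfa is a textbook example, formed the last list. Of 19 genes, 6 were called higher and 1 lower in HB against ES, 1 and 9 in HE1 against HB, 1 and 1 in HE2 against HE1, 0 and 0 in HP against HE2 and 1 and 2 in HP against HE1. From HB to HE1 the median log2 change of the list was -0.90 beside 0.04 for all tested genes, of which 12.7% were called higher and 8.19% lower, and Vegfa did not pass the test. Bnip3 and Ankrd37 fell in HE1 (log2 change -4.04 ± 0.230 and -3.15 ± 0.363), and Ankrd37 was also among the genes most like Vegfb. Epas1, which encodes HIF-2α, fell in HB (-2.37 ± 0.551), rose in HE1 (4.07 ± 0.587) and was lower in HP than in HE1 (-3.31 ± 0.564). Egln3 and Egln1, the prolyl hydroxylase genes, rose in HB by 3.86 ± 0.163 and 2.34 ± 0.236, Egln1 fell in HE2 and HP against HE1 (-1.09 ± 0.230 and -1.59 ± 0.233), and Hif3a rose by 1.19 ± 0.273 and 1.25 ± 0.273. No test compared a list with other genes.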

How the data were processed

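Nuclear RNA-seq libraries of 5 stages, 2 per stage, were analysed. The authors removed rRNA reads with RiboDetector (v0.2.7), used Trimmomatic for trimming and HISAT2 (v2.2.1) for alignment to mm10, and made the deposited raw counts with featureCounts (v2.0.1) on exons of Ensembl release 102 genes, by strand, with a fragment that overlapped several genes counted on each. The deposited matrix of 15686 genes holds a score per stage, a mean CPM that the authors normalized with edgeR (v3.40.2). Its ES column sums to more than a plain CPM can, so it was taken as a score and used to look up the members and the order of their stages.

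Here the counts of all 10 libraries were fitted with edgeR (v4.0.16, R v4.3.3) after filterByExpr and TMM scaling, with stage as the only term and 5 residual degrees of freedom. Comparisons used its quasi-likelihood F test, with p-values adjusted by Benjamini and Hochberg's method over 22596 genes. Log2 CPM used a prior count of 2. Exonic lengths came from the count tables and upstream sequence from RefSeq. On simulated data for HB against ES with 22596 genes, 181 of 200 genes changed by 2 on the log2 scale were recovered, with 5 false calls. Alternatives were limma-voom (v3.58.1), DESeq2 (v1.42.0), its size factors, total counts, no filter, only the libraries compared, a replicate block, a crossed block chosen after seeing the data, a 4-fold threshold, adjusted p alone and leaving out each library.

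The genes, the gene lists, the tests and the rule for named genes (all members, the 3 genes most correlated with each, and up to 2 called genes per list, comparison and direction) were chosen with earlier results of these data known. One gene that this rule names is not reported here. Marker lists held endothelial, hematopoietic, pluripotency, mesoderm, mesenchymal and smooth muscle, visceral endoderm and sort antigen genes. Depth was 24920434 to 58782055 counts per library. Shares of receptors and ligands are descriptions per kilobase of exonic length.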

Additional observations from a re-analysis of the deposited data

How the results depend on the processing

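Of the log2 changes of the 9 genes over 5 comparisons and the alternatives that refitted the model, the crossed replicate block included, 738 kept their side of the threshold and direction, 29 gained a call, 20 lost one and 23 changed sign. A 4-fold threshold left 4 members higher in HB against ES and 0 higher and 0 lower in HE1 against HB, with 0 lower in HE2 against HE1. In HP against HE1, Kdr (-1.55) and Nrp1 (-1.91) were lower by less than 4-fold. The share of all tested genes at 4-fold was not counted. Total counts in place of TMM left 1 member higher in HE1 against HB, beside 2794 of 22596 of all genes. They put the median of all genes in HE2 against HE1 at -0.17 (log2). For the lower calls in HE2 against HE1, DESeq2, no filter on low counts and the crossed replicate block gave 4 each, and only the 4 libraries compared gave 1. Over all genes these settings gave 1795 of 22596, 2864 of 39019, 2149 of 22596 and 171 of 18939. For those in HP against HE2, DESeq2 and no filter gave 4 and the crossed block 1, beside 193 of 22596, 389 of 39019 and 42 of 22596 of all genes. Leaving out a library gave 0 to 2 members higher in HE1 against HB, 1 to 5 lower in HE2 against HE1 and 0 to 6 lower in HP against HE2, where leaving out HE2 replicate 2, and no other library, raised the count. A library left alone in its stage is assumed to vary like the other stages. The causes of these shifts were not tested.

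The replicate numbers as labelled did not pair the libraries, since correlations of deviations from the stage means ran from -0.51 to 0.31 over 10 pairs of stages. Among HB, HE1, HE2 and HP they were positive for HB with HE2 (0.31) and HE1 with HP (0.10). For the other pairs of these stages they were -0.51 to -0.18. These are the signs of a crossed pairing, which the main fit leaves out. With the number as a replicate block, 1 member was higher in HE1 against HB, because Flt1 lost its call, and no other count of members moved. Of all 22596 tested genes, 2494 were higher there with this block. The crossed pairing, with HE1 and HP numbers exchanged, was chosen after seeing the data.

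Leaving out libraries turned the sign of some log2 changes, none of them called in the fit of all libraries with the filter on low counts. The ranges were -0.69 to 0.18 for Kdr, -0.062 to 0.35 for Vegfa and -0.47 to 1.45 for Pgf in HE1 against HB, and -0.70 to 0.14 for Kdr and -0.20 to 0.66 for Vegfb in HE2 against HE1. In HP against HE2 they were -1.16 to 0.18 for Nrp1, -0.64 to 0.21 for Vegfb, -0.40 to 0.34 for Vegfc and -0.33 to 0.55 for Pgf. In HP against HE1 they were -0.090 to 0.11 for Vegfb, -0.22 to 0.53 for Vegfc and -1.87 to 0.068 for Pgf. With limma-voom and with no filter, Vegfb in HP against HE1 was at 0.0074 and 0.0081.

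Without division by exonic length, the share of the receptor sum was 8.88% for Kdr, 33.5% for Flt1 and 57.6% for Flt4 in ES, and for Flt1 10.0% (HB), 19.1% (HE1), 12.5% (HE2) and 12.2% (HP). The share of the ligand sum was then 37.0% (ES), 56.2% (HB), 78.1% (HE1), 45.2% (HE2) and 35.1% (HP) for Vegfa, 45.3%, 26.5%, 11.2%, 31.7% and 33.9% for Vegfb, 16.1% in ES, 16.3% in HB and 8.38% in HE1 for Vegfc, and 1.59% in ES and 1.85% in HE2 for Pgf. Vegfa in place of Vegfb thus led in HB, by its mean in HE2, and in HP in replicate 2 only.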
